A study of Mus musculus with 6 samples.

Results

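The regions described here are the open chromatin peaks assigned to 10 genes of the pluripotency network: Pou5f1, Nanog, Sox2, Esrrb, Klf4, Klf2, Utf1, Tdgf1, Pou3f1 and Prdm14. The peaks were taken by gene name, as every row of the authors' deposited table of all peaks whose gene column holds a member. The genes themselves were picked with earlier results of these data known. This gave 34 of 70494 peaks. Esrrb had 13 of them, Klf4 had 4, Nanog, Klf2 and Prdm14 had 3 each, Pou5f1, Tdgf1 and Pou3f1 had 2 each, and Sox2 and Utf1 had 1 each. Peaks of a gene are numbered below in order along the chromosome, so that Pou5f1 1 and Pou5f1 2 are the peaks of Pou5f1.

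The assay was ATAC-seq: a transposase cuts DNA that is not packed away and tags the ends for sequencing, so that read density reports how open a region is. All 6 libraries came from definitive endoderm, the germ layer that forms gut, liver and pancreas, made in culture from mouse epiblast stem cells of the 7H OTX2-dTAG-EGFP line on a BL6/129 hybrid background. The control and treated cells therefore shared the tagged allele of the transcription factor OTX2, and no untagged line was analysed here. Differentiation took 16 h in 40 ng/ml Activin A and 3 uM CHIR, followed by 24 h in 100 ng/ml Activin A and 100 nM LDN. The DMSO group (3 libraries) received solvent and the dTAG13 group (3 libraries) received the compound dTAG13, which directs the tagged protein to degradation, for 24 h from the primitive streak stage. Live cells were sorted and 50000 of them went into each library. Per the series' design, the replicates were technical, and p-values therefore measure the spread between repeated libraries, which need not hold that between cultures or clones.

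OCT4 (the product of Pou5f1), SOX2 and NANOG are transcription factors that bind together at enhancers and hold cells in the pluripotent state, partly by activating each other's genes. ESRRB, KLF4, KLF2 and PRDM14 are known for the naive state of the inner cell mass and embryonic stem cells, while POU3F1 marks the later, primed state of the epiblast, to which OTX2 also belongs. During formation of the endoderm this network is normally shut down, although Activin and Nodal signalling, which drives endoderm, also sustains Nanog and Pou5f1 in epiblast stem cells.

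The deposited table holds 1 mean per peak and no column per library, but the reads of each library could be recovered. Weak peaks with signal in 1 group had means that were whole multiples of 3 steps, the worth of 1 read in each library: 771 of 771 such DMSO peaks and 154 of 154 such dTAG13 peaks were met by whole reads to within 3.21e-08. For the member peaks, sets of whole reads were sought only near the split between groups that the deposited fold change implies. A set that met the deposited mean, fold change and standard error was found for 32 of 34 peaks. For the other 2, Esrrb 7 and Esrrb 10, the sole set among those sought that met the mean was taken. At 20 peaks a sole set among those sought met the mean. At 14 stronger peaks several sets did (up to 928, at Klf2 1), and the set was taken whose fitted fold change lay within 5e-05 of the deposited one. At no peak did more than 1 set meet this limit, and the nearest rejected set missed by 0.000127, at Klf2 1. Libraries are named a, b and c in order of falling size factor, the number by which reads are divided to make libraries comparable, since their replicate numbers cannot be told. The size factors were 1.35, 1.31 and 1.09 in DMSO and 0.961, 0.823 and 0.780 in dTAG13. The groups did not overlap, and the DMSO mean was 1.46 times that of dTAG13. Of the 190 nonzero read values of member peaks, 140 (73.7%) were even numbers, so intervals made from reads cover counting error only and may be too narrow. As a check of the labelled cell type, all 12 definitive endoderm genes examined, among them Foxa2, Sox17 and Gata6, had a peak within 1 kb of a start site. The strongest such peak of each had a median of 29.3 mean normalized counts (range 4.52 to 58.1). The same held for 4 of 4 neural, 5 of 8 mesoderm, 3 of 4 trophoblast and 2 of 4 epiblast stem cell genes (Dnmt3b and Fgf5), with medians of 18.8, 9.97, 13.6 and 33.8, so open promoters alone did not set endoderm apart from those types. Eomes counts in both the endoderm and the trophoblast list. In the authors' test, 8 of the endoderm genes' 68 peaks were called, all lower in dTAG13. Calls numbered 1 of 25 peaks for mesoderm (lower), 1 of 12 for neural (higher), 0 of 27 for trophoblast and 0 of 9 for epiblast stem cell genes, beside 5.26% of all peaks, and differences between these lists were not tested. In such bulk samples fewer open cells and less open chromatin per cell cannot be told apart, and the part of a shift in cell makeup was not tested.

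The 4 member peaks that passed the authors' test are shown first, because the calls rest on them, followed by a Pou3f1 peak that holds the OTX letters GGATTA near its middle and was not called. Sequences are from the plus strand of GRCm38.p6, the assembly of mm10. Capitals mark matches to the OTX letters GGATTA, which read TAATCC on the other strand. They also mark matches to the GATA letters AGATAA, which read TTATCT there. For Pou5f1 1 the 300 bases at the right end of the 408-base peak are shown and for Utf1 1 the 113 bases before the start site.
Pou5f1 1, chr17:35507136-35507435: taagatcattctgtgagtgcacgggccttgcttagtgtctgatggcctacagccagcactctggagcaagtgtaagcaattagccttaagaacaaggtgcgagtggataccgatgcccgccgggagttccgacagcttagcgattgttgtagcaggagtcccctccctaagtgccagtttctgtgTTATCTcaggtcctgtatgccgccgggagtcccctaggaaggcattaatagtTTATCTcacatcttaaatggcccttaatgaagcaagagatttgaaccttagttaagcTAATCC
Utf1 1, chr7:139943676-139943788: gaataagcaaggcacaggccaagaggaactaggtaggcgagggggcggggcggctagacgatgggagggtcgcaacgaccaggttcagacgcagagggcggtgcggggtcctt
Esrrb 10, chr12:86471623-86471712: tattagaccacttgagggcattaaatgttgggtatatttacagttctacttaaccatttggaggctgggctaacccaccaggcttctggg
Nanog 1, chr6:122703858-122703921: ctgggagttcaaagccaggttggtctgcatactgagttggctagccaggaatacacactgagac
Pou3f1 1, chr4:124645011-124645231: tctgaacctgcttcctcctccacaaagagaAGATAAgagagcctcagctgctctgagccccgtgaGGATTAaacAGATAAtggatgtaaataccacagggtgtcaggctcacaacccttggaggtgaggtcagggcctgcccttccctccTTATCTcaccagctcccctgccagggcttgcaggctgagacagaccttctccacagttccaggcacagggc
The printed Pou5f1 sequence holds 1 OTX match, in the last 6 bases of the peak, and 2 GATA matches. No match to either is present in the sequences shown for Utf1, Esrrb and Nanog. The Pou3f1 peak holds 1 OTX and 3 GATA matches.

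Upon dTAG13 treatment, 4 of the 33 member peaks with an adjusted p were called in the authors' deposited table at an adjusted p under 0.05. Accessibility fell at an intronic peak of Pou5f1, at the Utf1 promoter and at an intronic peak of Esrrb, and it rose at a weak peak upstream of Nanog. Of all 69128 peaks with an adjusted p, 5.26% were called, 3.79% lower and 1.47% higher in dTAG13. The members' 12.1% stands on 4 peaks (3 lower, 1 higher). The zero point of the fold changes moved both splits. With centring on the median of all peaks, 2.97% of all peaks were lower and 2.83% higher, and 6 member peaks were called (3 lower, 3 higher). With centring within deciles of GC content these were 1.99% and 3.27% of all peaks and again 6 members (3 lower, 3 higher). With centring on peaks of both groups' lists they were 4.57% and 1.14%, and 3 members (all lower). When only peaks whose mean was 10 or more were adjusted, 2 of 17 members were called, against 6.90% of such peaks. At an unadjusted p under 0.05 there were 10 member peaks (29.4%), against 19.7% of all peaks. The median log2 fold change of dTAG13 over DMSO in the authors' deposited table was -0.17 over the members (quartiles -0.95 and 0.67) and -0.18 over all peaks (quartiles -1.01 and 0.39). In all, 20 of 34 member peaks (58.8%) lay below 0, close to the 58.2% of all peaks. The median and the split of directions over the members were thus close to those of the whole table. Fold changes here keep the authors' zero point. Against the median of all peaks every value would be 0.18 higher, and against the median of peaks found in both groups' peak lists (0.09) it would be 0.09 lower.

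**Figure D1:**
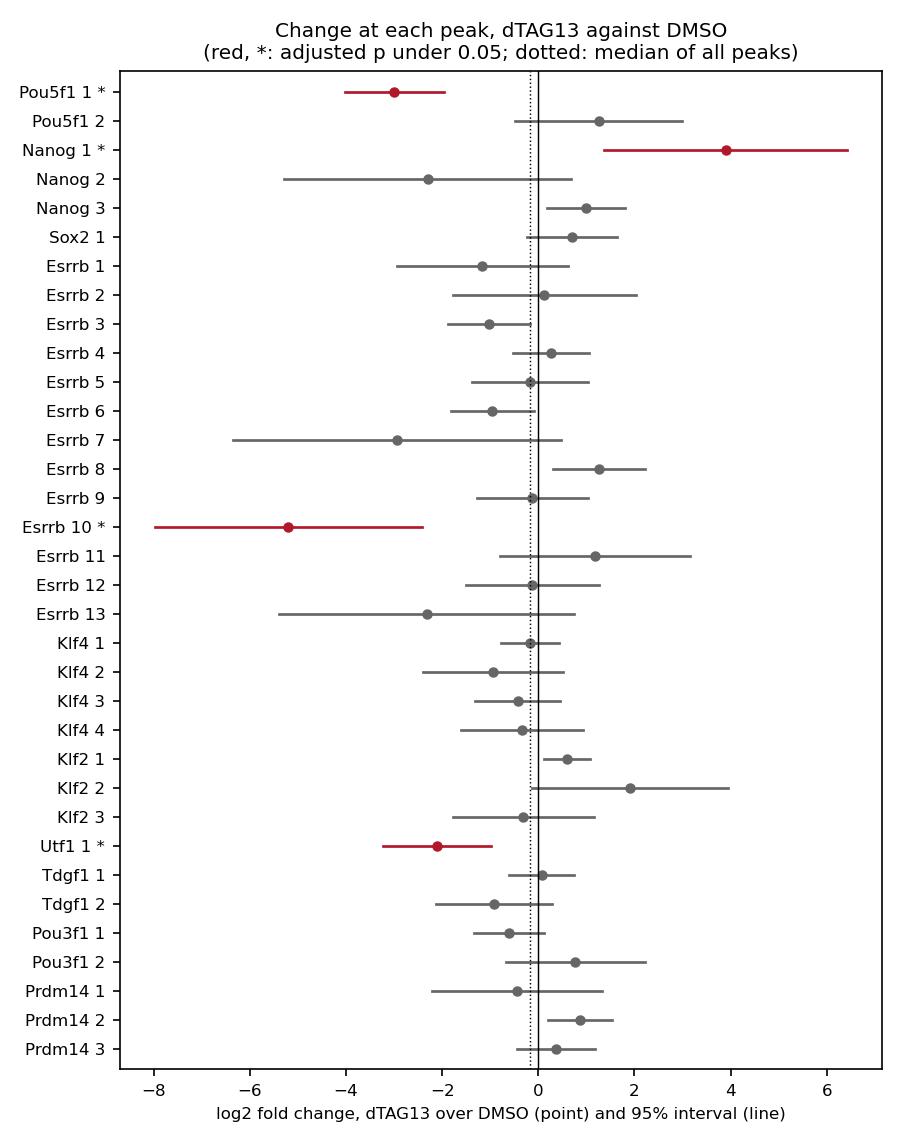
Log2 fold change of dTAG13 over DMSO (points) with 95% intervals from the standard errors (lines) for the 34 member peaks, from the authors' deposited table. The 4 called peaks (red) are Pou5f1 1, Utf1 1 and Esrrb 10, below 0, and Nanog 1, above 0; the dotted line is the median of all peaks, -0.18.

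The plot of fold changes shows that the uncalled intervals reach furthest at the weakest peaks. Set among all peaks, the members span the range of signal from weak to strong, with mean normalized counts from 1.83 to 49.6 and a median of 9.84 against 7.33 for the table.

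**Figure D2:**
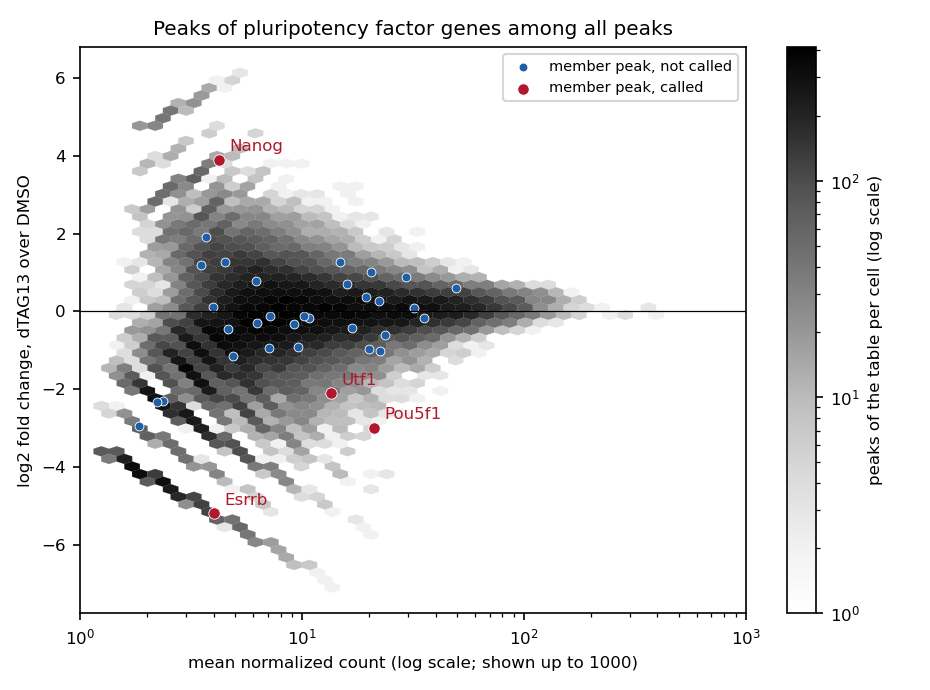
Mean normalized count (log scale) against log2 fold change of dTAG13 over DMSO for all 70494 peaks (grey, darker where more peaks fall) and for member peaks (blue, and red where called). Pou5f1 1 and Utf1 1 are called at means of 21.2 and 13.4, while Nanog 1 and Esrrb 10 are called at means of 4.22 and 3.99.

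Pou5f1 had the smallest adjusted p of all member peaks. Pou5f1 1 (mm10, chr17:35507028-35507435, 408 bases) lies in an intron, 1213 bases after the outermost start site of the gene and 251 bases before another annotated start. It had 53, 55 and 34 reads in DMSO libraries a, b and c, and 2, 6 and 4 in dTAG13 libraries a, b and c. Every DMSO library was above every dTAG13 library by a wide margin. The peak was called from these same reads, so this separation is no further support. After normalization the means were 37.5 ± 5.60 (SD, n = 3) and 4.83 ± 2.62 (SD, n = 3). The authors' deposited table gave a log2 fold change of -2.99 (SE 0.52) with an adjusted p of 1.80e-05. The region was in the DMSO peak list and absent from the dTAG13 list. Pou5f1 2 (chr17:35509427-35509496), over a coding exon inside the gene, went the other way in value. It had 5, 3 and 2 reads in DMSO and 4, 8 and 4 in dTAG13, a log2 fold change of 1.26 (SE 0.89) in the authors' deposited table, and was not called (adjusted p 0.450). It was in the dTAG13 list only. Pou5f1 1 was also the peak nearest to the outermost start, with 1010 bases between them, so no peak of the table covered that start itself.

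Nanog showed its only called peak upstream of the gene. Nanog 1 (chr6:122703858-122703921, 64 bases) lies 3600 bases before the start site, outside any annotated gene. It had 0, 2 and 0 reads in DMSO and 6, 6 and 8 in dTAG13. The call thus rests on 2 reads against 20, and on a mean of 0.509 ± 0.881 (SD, n = 3) against 7.93 ± 2.09 (SD, n = 3) after normalization. The ratio of reads per size factor was 14.6, with an exact 95% interval of 3.55 to 129 for counting error. The authors' deposited table gave a log2 fold change of 3.90 (SE 1.29) and an adjusted p of 0.0488, just under the threshold. With fold changes centred on the peaks found in both lists, the adjusted p was 0.0529 and the call was lost. The log2 ratio of group means was 3.06 with a pseudocount of 0.5, and 4.08 without DMSO library b, which held both DMSO reads. Nanog 3 (chr6:122715979-122716214), 8607 bases after the start and beyond the end of the gene, was the strongest Nanog peak. It had 18, 14 and 18 reads in DMSO and 19, 18 and 31 in dTAG13, which were 13.5 ± 2.92 and 27.1 ± 11.0 (SD, n = 3 each) after normalization. All dTAG13 libraries were above all DMSO libraries once normalized, but the log2 fold change in the authors' deposited table, with a 95% interval of 0.19 to 1.81, had an adjusted p of 0.132. It was 0.0318 with centring within deciles of GC content, 0.0607 with centring on the median of all peaks and 0.183 with centring on peaks of both lists. The intronic Nanog 2 (chr6:122708988-122709063) had 4, 9 and 2 reads in DMSO and 0, 2 and 0 in dTAG13, with a deposited log2 fold change of -2.30 (SE 1.52) and an adjusted p of 0.413. The groups overlapped there. Summed over its 3 peaks, Nanog had 17.9 ± 1.45 normalized counts in DMSO and 35.9 ± 12.6 in dTAG13 (SD, n = 3 each). The promoter itself held no peak, the nearest being 1499 bases from the start.

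Sox2 had a peak just before its start. Sox2 1 (chr3:34649836-34649965), 505 bases upstream of the start and within the span of the noncoding gene Sox2ot, had 8, 14 and 22 reads in DMSO and 18, 14 and 18 in dTAG13. After normalization these were 12.3 ± 7.26 and 19.6 ± 3.13 (SD, n = 3 each), and the groups overlapped. The deposited log2 fold change was 0.70 with a 95% interval of -0.23 to 1.63, and the adjusted p was 0.428. Thus a fall as large as that at Pou5f1 1 lies outside this interval.

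Utf1, a chromatin-associated factor of pluripotent cells whose gene is a known target of OCT4 and SOX2, had its sole peak over the promoter. Utf1 1 (chr7:139943676-139943864, 189 bases) spans the start site, and 76 of its bases are annotated as 5′ UTR. It had 24, 36 and 22 reads in DMSO and 4, 7 and 2 in dTAG13. No dTAG13 library came near the lowest DMSO library, which is again no further support, as the call comes from these reads. The normalized means were 21.8 ± 5.06 and 5.08 ± 3.07 (SD, n = 3 each), and the authors' deposited table gave a log2 fold change of -2.10 (SE 0.57) with an adjusted p of 0.0122. Like the called Pou5f1 peak, it was in the DMSO list only.

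Tdgf1 encodes Cripto, the membrane co-receptor for Nodal. Its stronger peak, Tdgf1 1, lies upstream of the start. It had 44, 49 and 26 reads in DMSO and 38, 36 and 12 in dTAG13, or 31.3 ± 6.86 and 32.9 ± 15.3 (SD, n = 3 each) after normalization. The low value in each group was that of its library c. The deposited log2 fold change was 0.08 with a 95% interval of -0.60 to 0.75 (adjusted p 0.929), so a halving or more lies outside the interval. Tdgf1 2 (chr9:110948212-110948319), 2107 bases upstream, had 22, 19 and 7 reads against 6, 6 and 5, with a deposited log2 fold change of -0.92 (SE 0.61) and an adjusted p of 0.422. The 2 groups overlapped there through DMSO library c.

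**Figure D3:**
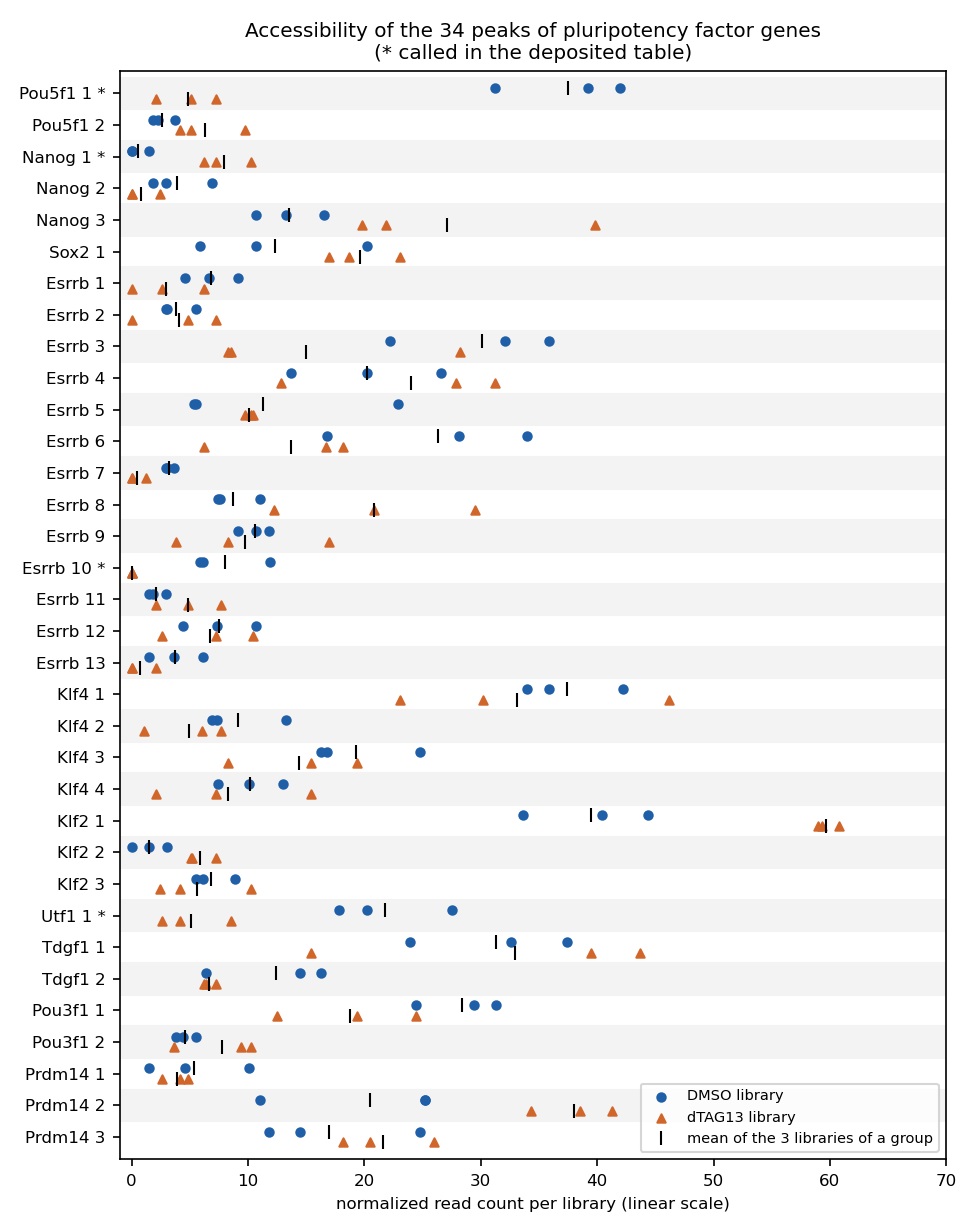
Normalized read count (linear scale) in each DMSO library (blue circles) and dTAG13 library (orange triangles) for the 34 member peaks, with group means as bars. The groups are far apart at Pou5f1 1 (means 37.5 and 4.83) and Utf1 1 (21.8 and 5.08) and interleave at Klf4 1 and Tdgf1 1.

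In the plot of values per library, Esrrb has peaks that lie apart in either direction. Esrrb encodes an orphan nuclear receptor of the naive network, and its 13 peaks are spread over a long gene, from 5 to 155663 bases after its outermost start. Esrrb 10 (chr12:86471623-86471712, 90 bases), in an intron and 1550 bases after an internal start site, had 8, 8 and 13 reads in DMSO and 0, 0 and 0 in dTAG13. The normalized DMSO mean was 7.99 ± 3.42 (SD, n = 3). With a floor of 3 reads over the dTAG13 group, accessibility in DMSO was 6.61-fold higher. As most read values were even numbers, this floor may be too low, and the value is no firm minimum. The authors' deposited table called it with an adjusted p of 0.0126, and its fitted log2 fold change of -5.20 (SE 1.42) is no bound. Centring within deciles of GC content moved the adjusted p to 0.0488.

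The other 12 Esrrb peaks were not called, and they did not share a direction: 8 had a log2 fold change below 0 and 4 above. The strongest, Esrrb 3 (chr12:86395409-86395727) in the first intron, had 30, 47 and 35 reads in DMSO and 8, 7 and 22 in dTAG13. Its deposited log2 fold change was -1.03 (SE 0.43) and its adjusted p 0.142, and dTAG13 library c reached into the DMSO range. Esrrb 6 (chr12:86403923-86404226), with 38, 22 and 37 reads against 6, 15 and 13, had a deposited log2 fold change of -0.96 (SE 0.44) and an adjusted p of 0.196. Between them, Esrrb 4 (chr12:86398847-86399123) had 36, 18 and 22 reads against 30, 23 and 10 and a deposited log2 fold change of 0.26 (SE 0.40). These 3 peaks were of like strength and lay within 10 kb of each other. The promoters differed as well in value. Esrrb 1 (chr12:86361066-86361179), at the outermost start, had 9, 6 and 10 reads against 6, 0 and 2 and a deposited log2 fold change of -1.16 (SE 0.91, adjusted p 0.508). Esrrb 8 (chr12:86421473-86421690), at an internal start, had 10, 10 and 12 reads against 20, 10 and 23, which were 8.68 ± 2.02 and 20.8 ± 8.68 (SD, n = 3 each) after normalization. Its deposited log2 fold change was 1.27 (SE 0.49, adjusted p 0.101), and the normalized groups did not overlap. Summed over all 13 peaks, Esrrb had 147, 125 and 155 normalized counts in DMSO and 113, 111 and 115 in dTAG13.

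Klf4 and Klf2 encode zinc finger factors that support naive pluripotency and are also used in many other tissues. Their loci were among the more open of the set. Klf4 had 4 peaks around the promoter and first exons, all with a log2 fold change below 0 (-0.94 to -0.17) and none called. Klf4 1 (chr4:55530263-55530525), over a coding exon, had 46, 47 and 46 reads in DMSO and 29, 38 and 18 in dTAG13, or 37.4 ± 4.29 and 33.1 ± 11.8 (SD, n = 3 each) after normalization. Its deposited log2 fold change was -0.17 with a 95% interval of -0.77 to 0.43. Of the promoter peaks, Klf4 3 (chr4:55532460-55532591), at the start site, had a deposited log2 fold change of -0.43 (SE 0.45), Klf4 2 (chr4:55532237-55532307) of -0.94 (SE 0.74) and Klf4 4 (chr4:55532693-55532770) of -0.33 (SE 0.65). At all 4 the groups overlapped.

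Klf2 1 (chr8:72318715-72319072), over the Klf2 promoter, was the strongest member peak with 49.6 mean normalized counts, or 13.8 per 100 bases. It had 60, 44 and 44 reads in DMSO and 57, 50 and 46 in dTAG13. After normalization these were 39.5 ± 5.47 and 59.7 ± 0.934 (SD, n = 3 each), so the raw reads were alike and the groups separated only after division by the size factors. The authors' deposited table gave a log2 fold change of 0.60 (SE 0.25) and an adjusted p of 0.134, which was 0.0366 with centring on the median of all peaks, 0.146 within deciles of GC content and 0.228 with centring on peaks of both lists. Klf2 2 (chr8:72333609-72333700), 14621 bases downstream of the start, had 2, 4 and 0 reads against 5, 6 and 4 and a deposited log2 fold change of 1.91 (SE 1.04, adjusted p 0.296). Klf2 3 (chr8:72365962-72366095) lies in an intron of Eps15l1, 46995 bases from the Klf2 start, and had a deposited log2 fold change of -0.31 (SE 0.75).

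Prdm14, a regulator of naive pluripotency and of germ cell formation, had 3 peaks upstream of its start. Prdm14 2 (chr1:13132139-13132404), 5108 bases upstream, had 34, 33 and 12 reads in DMSO and 33, 34 and 30 in dTAG13. The normalized means were 20.5 ± 8.18 and 38.0 ± 3.51 (SD, n = 3 each), and no libraries overlapped between groups. The deposited log2 fold change of 0.87 (SE 0.34) had an adjusted p of 0.109. That was 0.0416 with centring on the median of all peaks, 0.00185 within deciles of GC content and 0.163 with centring on peaks of both lists. Prdm14 3 (chr1:13134429-13134672), 7387 bases upstream, had 16, 19 and 27 reads against 25, 15 and 16 and a deposited log2 fold change of 0.37 (SE 0.41). Prdm14 1 (chr1:13128798-13128876), 1673 bases upstream, had 2, 6 and 11 reads against 4, 4 and 2 and a deposited log2 fold change of -0.45 (SE 0.90). Summed over the 3 peaks, Prdm14 had 38.5, 44.3 and 45.9 normalized counts in DMSO and 64.5, 64.4 and 61.6 in dTAG13. For Klf4 such sums were 71.0, 72.5 and 84.4 in DMSO and 41.6, 79.0 and 61.6 in dTAG13. Tdgf1 had 48.8, 51.9 and 30.3 against 45.8, 51.0 and 21.8, and Pou3f1 28.9, 35.1 and 34.9 against 21.9, 23.1 and 34.6. The groups overlapped in the sums of Sox2, Klf4, Tdgf1 and Pou3f1. They did not in those of Pou5f1, Nanog, Esrrb, Klf2, Utf1 and Prdm14. How often such sums separate over all genes is not given here, so this is a description only.

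Pou3f1, the POU factor of the primed epiblast and of neural progenitors, had both its peaks upstream, within the span of the gene Gm2164. Pou3f1 1 (chr4:124645011-124645231), 11687 bases before the start, holds the OTX and GATA matches shown above. It had 33, 41 and 32 reads in DMSO and 12, 16 and 19 in dTAG13. The normalized means were 28.4 ± 3.55 and 18.8 ± 5.97 (SD, n = 3 each), and the highest dTAG13 library (24.4) equalled the lowest DMSO library (24.4) to 3 digits. The deposited log2 fold change was -0.61 with a 95% interval of -1.34 to 0.12 (adjusted p 0.367). Pou3f1 2 (chr4:124653135-124653202), 3639 bases upstream, had 6, 5 and 6 reads against 9, 3 and 8, with a deposited log2 fold change of 0.77 (SE 0.74).

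**Figure D4:**
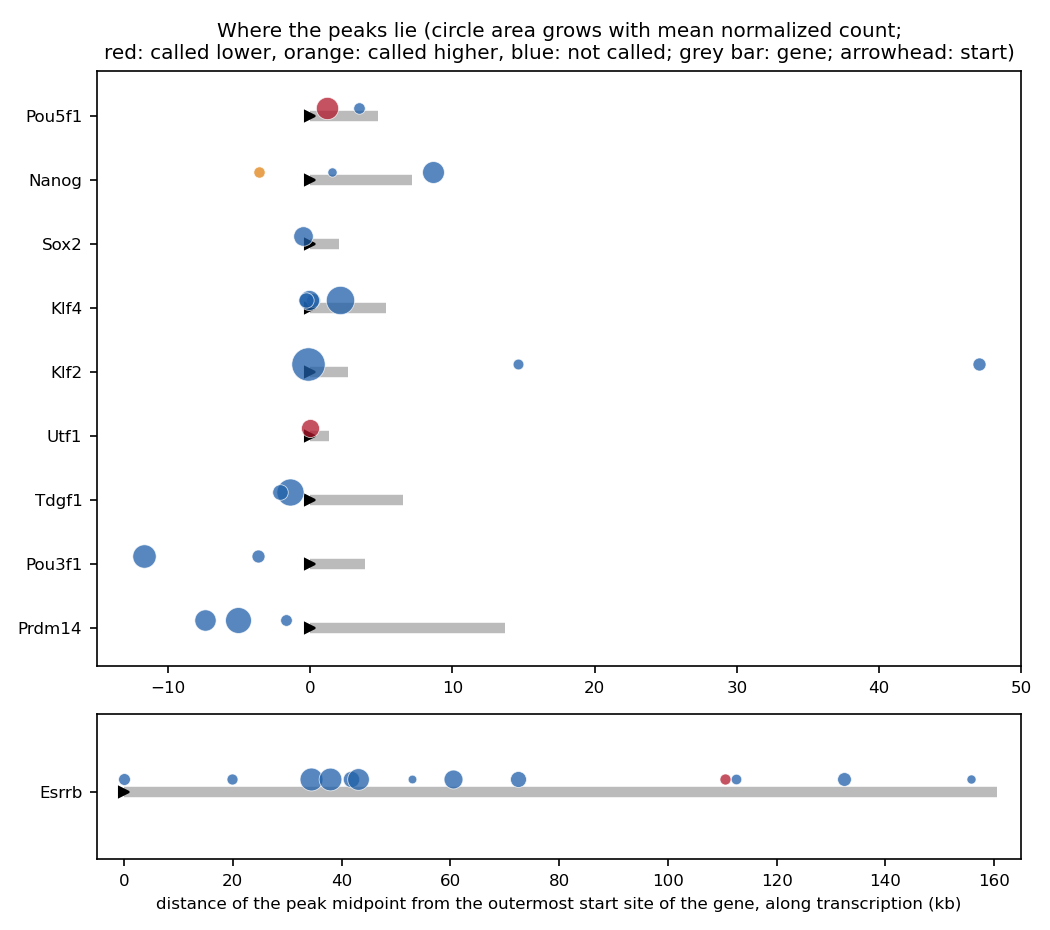
Distance of member peaks from the outermost start site of their gene, along the direction of transcription (kb), with circle area growing with the mean normalized count; Esrrb has its own scale. The called peaks lie inside Pou5f1 (1213 bases from the start) and Esrrb (110550 bases), over the Utf1 start and 3600 bases upstream of Nanog.

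By the plot of positions, peaks covered the outermost start of 4 genes, Esrrb, Klf4, Klf2 and Utf1. For Sox2 the nearest peak of the table was 440 bases from it, and for Pou3f1 it was 582 bases away and assigned to Gm27247. The authors' annotation placed 10 member peaks (29.4%) within 1 kb of a start site and 6 (17.6%) at 1 to 3 kb, against 30.7% and 8.39% of all peaks. A further 13 (38.2%) were intronic and 5 (14.7%) intergenic, against 26.1% and 31.2% of all peaks. Pou5f1 1, Esrrb 10 and Nanog 2, described above as intronic by gene position, are not among the 13. The authors' annotation places Pou5f1 1 within 1 kb of a start and the other pair at 1 to 3 kb. Klf2 3 and both Pou3f1 peaks are among the 13, in introns of other genes.

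Peak detection differed between groups at 17 of the 34 members. The pooled lists of both groups held the other 17, against 48.2% of all peaks, 12 were in the DMSO list only (35.3%, against 40.1% of all peaks) and 5 in the dTAG13 list only (14.7% against 11.8%). The 3 called lower peaks were among the 12 and Nanog 1 among the 5. As the DMSO libraries had size factors 1.46 times those of dTAG13, depth moves with list membership, and its part was not tested. The other dTAG13-only peaks were Pou5f1 2, Esrrb 11, Klf2 2 and Pou3f1 2, all with log2 fold changes above 0 and none called. The lists and the fold changes come from the same libraries, so a shared direction between them is no separate support.

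The 200 bases around each peak's midpoint were searched on both strands for short consensus letters, with the share of all 70494 peaks beside each count. The OTX letters GGATTA were in 4 member peaks (11.8% against 8.81%), at Esrrb 1, Esrrb 13, Pou3f1 1 and Tdgf1 1, and the reversed letters ATTAGG, searched as a control, were in 3 (8.82% against 7.06%). None of the 4 called peaks was among those with GGATTA in this window, whose deposited log2 fold changes were -1.16, -2.32, -0.61 and 0.08 in that order. Within the peaks' own bounds, whatever their length, GGATTA was in Pou5f1 1, Pou3f1 1 and Tdgf1 1, which is 8.82% of members against 7.07% of all peaks. SOX letters (ACAAAG or ACAATG) were in 9 member peaks (26.5% against 24.5%), GATA letters (AGATAA) in 5 (14.7% against 15.6%) and TEAD letters (GGAATG) in 3 (8.82% against 11.5%). KLF letters (GGGTGTGG or GGGCGTGG), FOX letters (TGTTTAC), T-box letters (AGGTGTGA) and TCF/LEF letters (CTTTGAT) were in 1 each, or 2.94% against 5.44%, 5.33%, 1.71% and 2.83%. The octamer ATGCAAAT and the ESRRB letters TCAAGGTCA were in 0 member windows, against 1.21% and 0.234% of all peaks. A match is a description of the letters and not of binding.

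Assignment by the gene column leaves out peaks near the members that carry another gene's name. Within 120 kb of a member's start site there were 173 peaks, members included, of which 16 were called (13 lower, 3 higher), or 9.41% of the 170 with an adjusted p. Without the members it was 12 of 137 (8.76%), beside 5.26% of all peaks, a difference that was not tested. Within 20 kb of a start, 0 of 18 peaks of other names were called. Of the 12 called neighbours, 4 lay near Nanog, 4 near Esrrb, 2 near Utf1 and 1 each near Klf4 and Prdm14, where near means within 120 kb. The closest lay 29455 bases from a member's start (at Kndc1) and the furthest 118952 bases (at Foxj2). Near Nanog, the deposited log2 fold changes were -1.75 (SE 0.45) and -1.11 (SE 0.29) at peaks assigned to the glucose transporter gene Slc2a3, -1.78 (SE 0.48) at Gm10420 and 0.78 (SE 0.23) at Foxj2. Near Esrrb they were -6.21 (SE 1.29) and -5.34 (SE 1.39) at a pair of peaks of 4732487G21Rik 39581 and 40263 bases before the Esrrb start, -5.18 (SE 1.43) at Gpatch2l and -1.30 (SE 0.36) at Gm27993. Near Utf1 they were -4.92 (SE 1.47) at Kndc1 and -4.69 (SE 1.54) at Adam8, near Prdm14 -3.75 (SE 1.22) at Slco5a1 and near Klf4 2.87 (SE 0.82) at Gm12506. The values of -3.75 and below come from weak peaks, with mean normalized counts of 2.78 to 8.03, that were not in the dTAG13 list, and such fitted values are no bounds. Around Pou5f1, Sox2, Klf2, Tdgf1 and Pou3f1, 0 peaks of other genes were called in the authors' deposited table at an adjusted p under 0.05. Which gene such a peak acts on was not measured.

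The wider pluripotency list, 55 further genes of the network, was read in the same way. Peaks were assigned to 49 of them, 195 in all, and 8 peaks in 6 genes were called (4.15% of 193, against 5.26% of all peaks), 7 lower and 1 higher. Their median log2 fold change was -0.21, beside -0.18 for all peaks. Sall4, which encodes a zinc finger partner of OCT4, had a called peak 23308 bases upstream (chr2:168790985-168791519) with 78, 71 and 56 reads in DMSO and 20, 12 and 8 in dTAG13. The deposited log2 fold change was -1.82 (SE 0.34, adjusted p 5.89e-05). Lifr, the receptor of leukaemia inhibitory factor, had 2 called peaks. Reads were 44, 56 and 38 against 10, 5 and 4 at the first (chr15:7088615-7088920) and 42, 40 and 30 against 0, 4 and 6 at the other (chr15:7152181-7152428). The deposited log2 fold changes were -2.32 (SE 0.45) and -2.91 (SE 0.58). Both have a GGATTA match in the central 200 bases, as has the first Cdh1 peak given next. Such matches were in 10.8% of the wider list's peaks and 8.81% of all peaks. Cdh1, the gene of E-cadherin, had 2 peaks in its second intron with 0 reads in every dTAG13 library. The first (chr8:106617318-106617512) had 24, 29 and 17 reads in DMSO, which is 15.9-fold higher with a floor of 3 reads in dTAG13, again no firm minimum. The other (chr8:106621742-106621841) had 17, 11 and 16. The Tet2 peak, of a gene for an enzyme that oxidises methylated DNA, had 47, 32 and 21 reads against 4, 2 and 6 and a deposited log2 fold change of -2.48 (SE 0.57). Etv5, an ETS factor downstream of FGF signalling, had the peak that rose (chr16:22411863-22411977), with 0, 2 and 3 reads in DMSO and 9, 6 and 12 in dTAG13. Its deposited log2 fold change was 2.97 (SE 0.92, adjusted p 0.0334). At each of the peaks of the wider list given here the 3 DMSO libraries and the 3 dTAG13 libraries did not overlap. These peaks were given because they were called from the same reads, so this separation is no further support.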

How the data were processed

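Mouse definitive endoderm was profiled by ATAC-seq in 3 DMSO and 3 dTAG13 libraries, grouped by the treatment label. The submitters' processing notes name fastp, Bowtie2, MACS2, featureCounts, HOMER 4.11, ChIPseeker and build mm10, with no roles. The deposited signal per peak is the mean over libraries of read counts divided by size factors, per the file headers, whose column names are those of DESeq2. The authors deposited log2 fold changes of dTAG13 over DMSO with their standard errors. The deposited score equals the fold change over its standard error (largest difference 8.72e-07). Adjusting the deposited p-value by Benjamini-Hochberg over 69128 peaks returned the authors' adjusted p-value (largest difference 7.87e-06). The other 1366 peaks, with means of at most 1.87, have none. Peaks were called on the pooled libraries of a group, per the file names. Handling of duplicates and any shift of read ends are not given in the sources used here.

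The authors' calls were counted as deposited. Members, gene lists and motifs were chosen with earlier results of these data known. The text names every member gene, and for each the called, strongest, lowest-p and promoter peaks, plus further peaks chosen after their values were seen, and of the wider list the genes with a called peak, except that 1 such peak and 1 member sequence are not reported here. Whole reads per library were solved from the mean, fold change and standard error, with an accepted difference in fold change of 5e-05. Intervals at 95% are normal intervals from the standard errors. Depth per library is known only through the size factors, and 3 libraries per group limit the precision. Gene positions are from GENCODE mouse release M21 and sequences from GRCm38.p6, whose chromosome lengths fit the peaks. Lists shared a peak when overlapping by at least 1 base. The alternatives tried were other filters on weak peaks, zero points, thresholds, gene assignments, overlaps and motif windows and, chosen after seeing the data, leaving out each library. Python 3.11.15, numpy 2.4.6, pandas 2.3.3, scipy 1.17.1, pysam 0.24.0 and matplotlib 3.10.9 were used, and the functions were tested on simulated data.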

Additional observations from a re-analysis of the deposited data

How the results depend on the processing

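The 3 lower calls (Pou5f1, Utf1 and Esrrb) kept their side of the threshold under every filter and centring tried that could give them a value. Their adjusted p ranged from 6.47e-06 to 0.000343 for Pou5f1, from 0.00754 to 0.0244 for Utf1 and from 0.00994 to 0.0488 for Esrrb. The filter at a mean normalized count of at least 10 removes the Esrrb and Nanog peaks, which left 2 member calls, 0 of them higher. The Nanog call ranged from 0.0291 to 0.0529 and was lost when fold changes were centred on peaks of both lists, with 0 higher calls then. Higher calls numbered 3 both with centring on the median of all peaks and with centring within deciles of GC content, where member calls came to 6 in all (18.2%). All peaks called then came to 5.81% and 5.26%, with higher calls at 2.83% and 3.27% of all peaks in place of 1.47%, so the added higher calls of the members came with a shift of the whole table. For the wider list, centring on the median of all peaks gave 10 calls (7 lower, 3 higher) in place of 8 (7 lower, 1 higher). Centring on peaks of both lists gave it 11 (10 lower, 1 higher), beside 5.71% of all peaks called in that setting. Taking every peak within 120 kb of a start gave 16 calls among 173 peaks, 13 lower and 3 higher, a share of 9.41% in place of 12.1%, beside 5.26% of all peaks. A window of 50 bases on each side of the midpoint left 1 member peak with GGATTA, against 4.98% of all peaks. The median log2 fold change of members lay between -0.26 and 0.01 over the alternatives.

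From the recovered reads, with a pseudocount of 0.5 and no test, leaving out each library in turn, an alternative chosen after seeing the data, gave log2 ratios of -3.21 to -2.50 at Pou5f1, -2.53 to -1.71 at Utf1, -4.25 to -3.70 at Esrrb and 2.74 to 4.08 at Nanog. No paired analysis was possible because the table summarises each peak over all libraries, and the recovered reads carry no replicate numbers. The median member peak had 9.84 mean normalized counts, beside 7.33 over all peaks. The Nanog call rests on 2 reads against 20 and the Esrrb call on 29 against 0, and the part of depth in which peaks were called was not tested.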

Other observations

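The authors' deposited table also has a pair of columns that mark genes as differentially expressed, down or up, by their names. How these marks were made is not given in the sources used here. They mark 370 (1.38%) of the 26796 genes named in the table as down and 429 (1.60%) as up, and 0 of the 10 members are in either set, a count too small to compare with those shares. In the wider list, 37 of 195 peaks belong to a gene marked down or up. Of its genes with a called peak, Sall4, Cdh1, Tet2 and Etv5 are marked down and the rest carry no mark. The called Etv5 peak rose. These relations were not tested. Sox2 has 6 peaks of other gene names within 20 kb of its start, more than any other member, and 0 of them were called. The 12 peaks of other names within 120 kb of Sox2 had log2 fold changes from -4.59 to 2.25 in the authors' deposited table. The lowest, at a weak Sox2ot peak with a mean normalized count of 2.59, had an SE of 1.57 and an adjusted p of 0.0577.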
